A study of Mus musculus with 28 samples.

Results

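Neurons that release glutamate or GABA are recognized in bulk RNA by a small set of genes, and 6 of them were followed here across the mouse brain. The genes were the 3 vesicular glutamate transporters *Slc17a6*, *Slc17a7* and *Slc17a8*, the vesicular GABA transporter *Slc32a1*, and the 2 glutamic acid decarboxylases *Gad1* and *Gad2*. They were chosen by symbol, as 6 of the 23038 genes quantified in each library, and all 6 passed the filter on low counts in each comparison. RNA-seq was performed on dissected midbrain of late embryos (E18.5) and on dissected midbrain and cortex of young mice (P21). Mice were homozygous for a human-type *Nova1* allele (Nova1 hu/hu) or for the mouse allele (Nova1 wt/wt), both on a BL6 strain background (backcrossed repeatedly to C57BL/6J), and were siblings from heterozygous crosses. The hu/hu allele was made by CRISPR/Cas9 in zygotes and replaces an isoleucine of the RNA-binding protein NOVA1 by valine, with silent changes that serve genotyping, in every cell of the animal. There were 6 libraries per genotype of E18.5 midbrain, 4 of P21 midbrain and 4 of P21 cortex, 28 in all. Cerebellum was not analysed here. The study calls its molecular samples biological replicates and balanced the sexes in its RNA-seq. The labels give replicates by number only and tie none to an animal, so p-values measure the spread between these samples.

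A glutamatergic neuron loads its synaptic vesicles through a vesicular glutamate transporter. VGLUT1, encoded by *Slc17a7*, is known as the transporter of cortical excitatory neurons, VGLUT2, encoded by *Slc17a6*, as that of thalamic, midbrain and brainstem neurons, and VGLUT3, encoded by *Slc17a8*, as that of scattered serotonergic, cholinergic and GABAergic cells. GABA is made from glutamate by GAD67 (*Gad1*) and GAD65 (*Gad2*), and VGAT (*Slc32a1*) loads GABA, or glycine, into vesicles. Levels are given as TPM, a transcript abundance made from counts divided by exon length and scaled to the same total in every library. Since whole tissue was sequenced, fewer neurons of a kind and less of a transcript per neuron cannot be told apart.

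*Slc17a6* lies on chromosome 7 from 51621830 to 51671126, and *Slc17a7* on the same chromosome from 45163921 to 45176139 (GRCm38, RefSeq, gene span). *Slc17a8* lies on chromosome 10 from 89574020 to 89621249. The 3 GABA genes are on chromosome 2, *Slc32a1* from 158607260 to 158615747, *Gad1* from 70561303 to 70602014 and *Gad2* from 22621015 to 22693877. The bases just upstream of the start of the first 2 genes are shown because these transporters went in opposite directions between regions, and GENCODE annotates no transcript over either window. Both are read 5′ to 3′ on the plus strand of GRCm38.p6 (RefSeq), at chr7:51621580-51621829 for *Slc17a6* and chr7:45163671-45163920 for *Slc17a7*, with matches to the E-box motif CANNTG, searched on both strands, in capitals.
Slc17a6: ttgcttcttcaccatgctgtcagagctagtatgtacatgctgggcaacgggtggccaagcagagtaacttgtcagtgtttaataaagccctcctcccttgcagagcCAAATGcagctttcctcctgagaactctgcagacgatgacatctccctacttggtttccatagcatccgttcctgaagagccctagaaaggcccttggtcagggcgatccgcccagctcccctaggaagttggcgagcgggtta
Slc17a7: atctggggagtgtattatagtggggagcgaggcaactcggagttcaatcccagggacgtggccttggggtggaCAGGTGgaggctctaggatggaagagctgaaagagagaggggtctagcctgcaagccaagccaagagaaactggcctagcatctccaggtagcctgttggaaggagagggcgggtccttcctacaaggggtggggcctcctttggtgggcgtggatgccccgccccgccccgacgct
Each window held 1 match, as did the median of the 32851 upstream windows of this length in the RefSeq table, of which 66.2% held at least 1. The *Slc17a7* window was 61.2% G or C with 9 CpG dinucleotides, and the *Slc17a6* window was 53.2% G or C with 7, against medians of 52.4% and 6.0 over all windows. Neither held the TATA motif TATAAA, found in 12.4% of windows, or the cyclic AMP response element TGACGTCA, found in 1.55%. RefSeq gives *Slc17a6* a second upstream window, at chr7:51624387-51624636, which is not shown. It held 2 E-box matches, 41.2% G or C and 3 CpG dinucleotides. A match describes letters and not binding.

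Libraries held between 18550922 and 45134998 counts. Tissue labels were checked against marker genes. The midbrain factors *En1* and *Pax7* averaged 5.61 and 3.57 TPM in P21 midbrain of Nova1 wt/wt mice and 0.0271 and 0.00528 TPM in cortex, while the cortical factor *Emx1* averaged 0.0992 TPM in that midbrain and 28.3 TPM in cortex. The summed level of 6 pan-neuronal markers was 3566 to 3983 TPM in E18.5 midbrain, 4669 to 5098 TPM in P21 midbrain and 5099 to 5555 TPM in cortex. Markers of oligodendrocytes summed to 18264 to 20583 TPM in P21 midbrain, 5235 to 5905 TPM in cortex and 58.2 to 81.1 TPM in E18.5 midbrain. Choroid plexus markers ranged from 12 to 3655 TPM over the 28 libraries. Thalamus markers summed to 231 to 304 TPM in P21 midbrain and 245 to 287 TPM in E18.5 midbrain. The midbrain markers summed to 156 to 191 and 90.5 to 113 TPM. The lists hold different genes, so their sums do not compare the amounts of the tissues. Of the 4 thalamus genes, 1 was called higher and 3 lower at P21 than at E18.5 in midbrain, where 42.4% and 43.3% of all genes were. Markers of cortical excitatory neurons summed to 28.3 to 37.9 TPM in E18.5 midbrain, against 5.75 to 9.62 TPM in P21 midbrain. The part of thalamus or forebrain in the midbrain dissections was not tested.

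**Figure D1:**
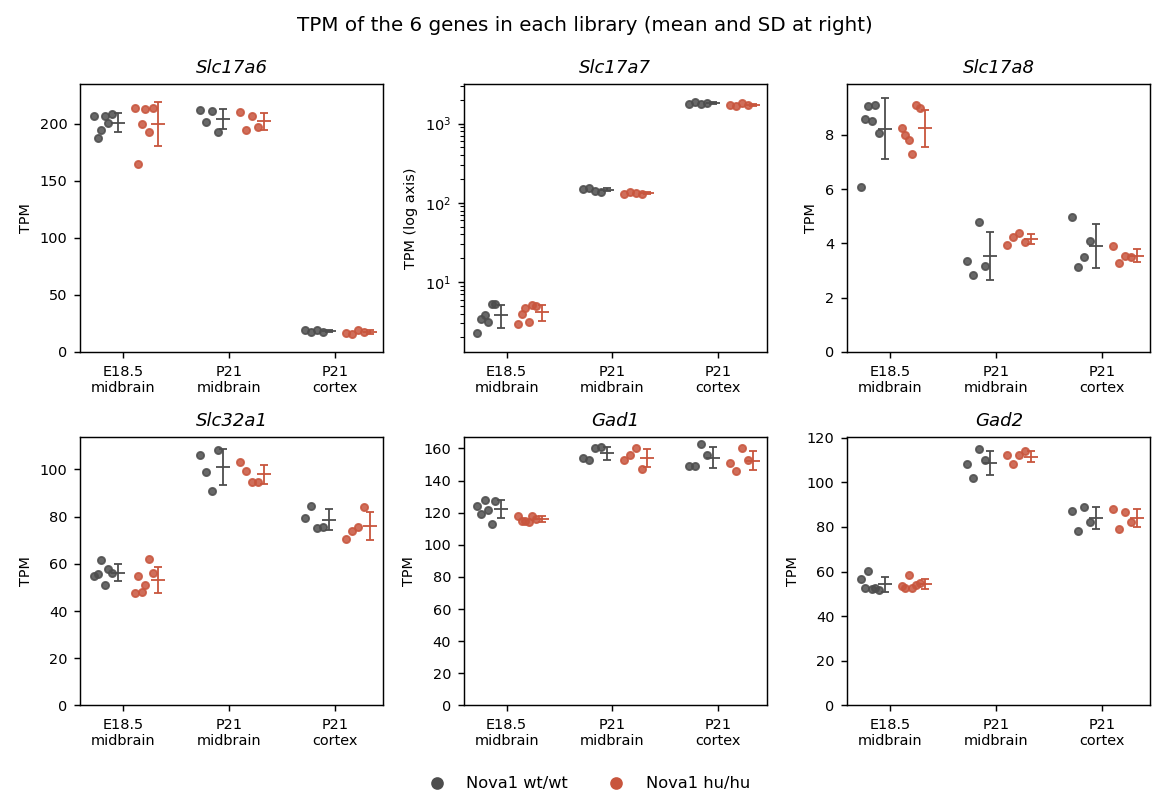
TPM of each of the 6 genes (vertical axes, logarithmic for Slc17a7 and starting at 0 for the others) in every library of midbrain at E18.5 and of midbrain and cortex at P21; points are libraries, coloured by genotype, and bars at the right of each group are the mean and SD. Slc17a6 stays near 200 TPM in midbrain and below 20 TPM in cortex, Slc17a7 goes from a few TPM to about 1800, and the genotypes lie over each other except for Slc17a7 in P21 midbrain.

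*Slc17a6* was at much the same level at both ages of midbrain and far lower in cortex. In P21 midbrain it was at 212, 202, 211 and 193 TPM in the wt/wt libraries and at 210, 195, 207 and 197 TPM in the hu/hu libraries. In cortex the wt/wt libraries held 18.9, 17.6, 19 and 17 TPM and the hu/hu libraries 16.6, 15.5, 19.5 and 17.4 TPM. Every midbrain library lay above every cortex library. In E18.5 midbrain the lowest, median and highest values were 188, 204 and 209 TPM in wt/wt mice and 165, 207 and 214 TPM in hu/hu mice, a range that took in all P21 midbrain libraries.

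*Slc17a7* spanned the widest range of the 6 genes. It held 2.25, 3.67 and 5.33 TPM (lowest, median and highest) in the wt/wt libraries and 2.95, 4.32 and 5.11 TPM in the hu/hu libraries of E18.5 midbrain, on 45 to 179 counts per library. In P21 midbrain the values were 150, 155, 143 and 139 TPM in wt/wt and 131, 137, 134 and 129 TPM in hu/hu mice. In cortex they were 1790, 1868, 1745 and 1796 TPM in wt/wt and 1695, 1684, 1820 and 1711 TPM in hu/hu mice. The 3 tissues did not overlap, and within P21 midbrain every wt/wt library lay above every hu/hu library.

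*Slc17a8* was low in all tissues. Its mean was 8.22 ± 1.12 TPM (SD, n = 6) in wt/wt and 8.23 ± 0.699 TPM (n = 6) in hu/hu E18.5 midbrain, 3.53 ± 0.874 and 4.15 ± 0.195 TPM (n = 4 each) in P21 midbrain, and 3.91 ± 0.807 and 3.55 ± 0.259 TPM (n = 4 each) in cortex. The E18.5 libraries lay above all others. At P21 the hu/hu midbrain libraries (3.95 to 4.38 TPM) lay above the hu/hu cortex libraries (3.27 to 3.89 TPM), and all other pairs of groups overlapped.

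The GABA genes moved together with age and separated between regions. *Slc32a1* held 106, 98.9, 91 and 108 TPM in the wt/wt and 103, 99.1, 94.8 and 94.6 TPM in the hu/hu libraries of P21 midbrain, 70.5 to 84.6 TPM over the 8 cortex libraries and 47.6 to 62 TPM over the 12 E18.5 libraries. *Gad2* held 108, 102, 115 and 110 TPM in wt/wt and 112, 108, 112 and 114 TPM in hu/hu P21 midbrain, 78.2 to 89 TPM in cortex and 51.7 to 60.3 TPM at E18.5. For both genes the 3 tissues did not overlap, in the order P21 midbrain, cortex, E18.5 midbrain. *Gad1* held 154, 153, 160 and 161 TPM in wt/wt and 153, 156, 160 and 147 TPM in hu/hu P21 midbrain, 146 to 163 TPM in cortex and 113 to 128 TPM at E18.5. For *Gad1* the regions overlapped at P21 and the 2 ages of midbrain did not.

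Ordered by TPM, *Slc17a6* led in midbrain at both ages, ahead of *Gad1* in 12 of 12 and 8 of 8 libraries. At E18.5 *Slc32a1* and *Gad2* followed at near-equal levels, *Slc32a1* being higher in 7 of 12 libraries, and *Slc17a7* was last. At P21 *Slc17a7* had moved up to the third place, below *Gad1* in 7 of 8 libraries and above *Gad2* in 8 of 8. In cortex *Slc17a7* led, at 11.4 times the level of *Gad1* (median over libraries), *Gad2* exceeded *Slc32a1* in 6 of 8 libraries, and *Slc17a6* and *Slc17a8* were last. The place of *Gad1* rests on its length. The files count it over 7135 exonic bases, whereas the longest principal GENCODE transcript has 3355. With transcript lengths *Gad1* rose to 253, 331 and 326 TPM on average in E18.5 midbrain, P21 midbrain and cortex, above *Slc17a6* at 209 and 212 TPM in midbrain. GENCODE also places the antisense genes *Gad1os* and *Gm14205* across *Gad1* and *Slc32a1*, and whether the counting was strand-aware is not given in the sources used here, so reads of these pairs may be mixed.

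Levels were also set against the summed pan-neuronal markers, a scale chosen after the values were seen and not a steady one, since 4 of its 6 genes were called higher and 2 lower at P21 than at E18.5 in midbrain. Per 1000 TPM of these markers, *Gad1* stood at 31.5 ± 1.53 (SD, n = 12) in E18.5 midbrain, 31.8 ± 1.61 (n = 8) in P21 midbrain and 28.4 ± 0.933 (n = 8) in cortex. *Gad2* went from 14.4 ± 0.942 to 22.6 ± 1.35 with age and stood at 15.6 ± 0.794 in cortex. *Slc17a6* went from 52.9 ± 3.17 to 41.6 ± 2.08 with age on this scale, and its ranges at the 2 ages touched, with the lowest E18.5 library at 44.6.

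The first comparison was between regions at P21. Genes were called with edgeR's quasi-likelihood test at p under 0.05 together with a false discovery rate (adjusted p) under 0.1, the genotypes and both regions in a single model of 16 libraries. Of the 6 genes, 2 glutamate transporters changed strongly and in opposite directions. *Slc17a6* was higher in midbrain by a log2 fold change of 3.45 (SE 0.043, edgeR adjusted p = 9.2e-27) and *Slc17a7* was lower, at −3.73 (SE 0.0304, edgeR adjusted p = 1.34e-29). *Slc32a1* and *Gad2* were higher in midbrain by smaller amounts, log2 0.285 (SE 0.0363, edgeR adjusted p = 1.75e-07) and 0.316 (SE 0.0337, edgeR adjusted p = 8.8e-09). *Gad1*, at −0.0551 (95% interval −0.114 to 0.00369), and *Slc17a8*, at −0.0331 (−0.258 to 0.192), did not pass the test, and both estimates became positive when TPM totals set the scale (0.0207 and 0.0423). Thus 3 of 6 genes were called higher in midbrain and 1 of 6 lower, where 37.9% and 37.7% of the 16345 genes tested were called in these directions. *Gad1* was called lower in midbrain when any of 4 libraries was left out, at −0.0637 without the second wt/wt and −0.0654 without the second hu/hu cortex library, and at −0.0609 without the third wt/wt and −0.0662 without the third hu/hu midbrain library.

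The second comparison was between ages of midbrain, in a model of 20 libraries. All 6 genes were called, 5 higher at P21 and *Slc17a8* lower, where 42.4% of the 16330 genes tested were called higher and 43.3% lower. *Slc17a7* had the largest difference, a log2 fold change of 5.3 (SE 0.0927, edgeR adjusted p = 9.17e-26) from 4.01 ± 1.05 TPM (SD, n = 12) to 140 ± 9.09 TPM (n = 8). *Gad2* rose by 1.22 (SE 0.0319), *Slc32a1* by 1.06 (SE 0.0438) and *Gad1* by 0.587 (SE 0.0321) on the log2 scale, with edgeR adjusted p of 3.43e-22, 6.7e-18 and 3.03e-15. *Slc17a8* fell by 0.899 on the log2 scale (SE 0.0887, edgeR adjusted p = 6.23e-10). *Slc17a6* was called at 0.221 (SE 0.0476, edgeR adjusted p = 0.000137) with TMM factors, but not with TPM totals (0.0204) or library totals (0.0672) as the scale. On those scales the median over all genes was −0.219 and −0.171, against −0.0153 with TMM factors, and they split the calls into 5528 higher and 8592 lower or 5850 and 8246, in place of 6919 and 7064.

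**Figure D2:**
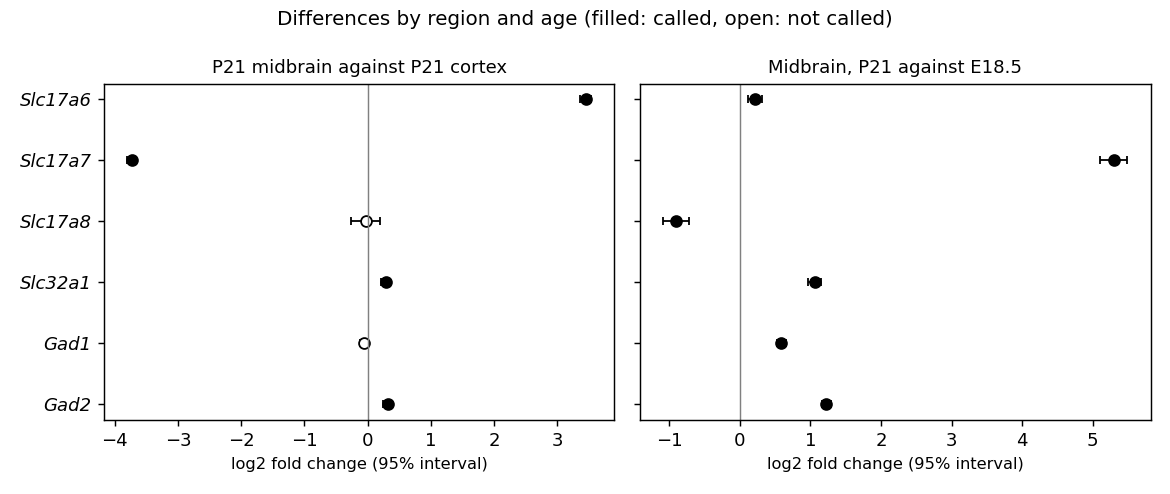
Log2 fold changes of the 6 genes (horizontal axes, with 95% intervals) for P21 midbrain against P21 cortex and for P21 against E18.5 midbrain; filled points were called by edgeR and open points were not. Slc17a6 and Slc17a7 lie at 3.45 and −3.73 between regions, and Slc17a7 at 5.3 between ages.

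Because both glutamate transporters are read from the same library, their ratio does not depend on the scale. The *Slc17a6* to *Slc17a7* ratio was 37.8 to 92.3 in the 12 E18.5 midbrain libraries, 1.3 to 1.6 in the 8 P21 midbrain libraries and 0.00919 to 0.0109 in the 8 cortex libraries. The log2 ratio was 7.19 higher in P21 midbrain than in cortex (exact permutation test, two-sided, p = 0.000155, adjusted over 2 such tests 0.000155) and 5.15 lower in P21 than in E18.5 midbrain, at 0.543 against 5.69 (permutation test, 100000 resamples, two-sided, p = 0.0001, adjusted 0.000155). *Slc17a6* made up 94.2 ± 0.909% (SD, n = 12) of the summed TPM of the 3 transporters at E18.5, 58.6 ± 1.5% (n = 8) in P21 midbrain and 0.99 ± 0.0636% (n = 8) in cortex, and *Slc17a7* 1.89 ± 0.499%, 40.3 ± 1.64% and 98.8 ± 0.0785%. *Slc17a8* took 3.88 ± 0.51%, 1.11 ± 0.202% and 0.209 ± 0.0327%.

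**Figure D3:**
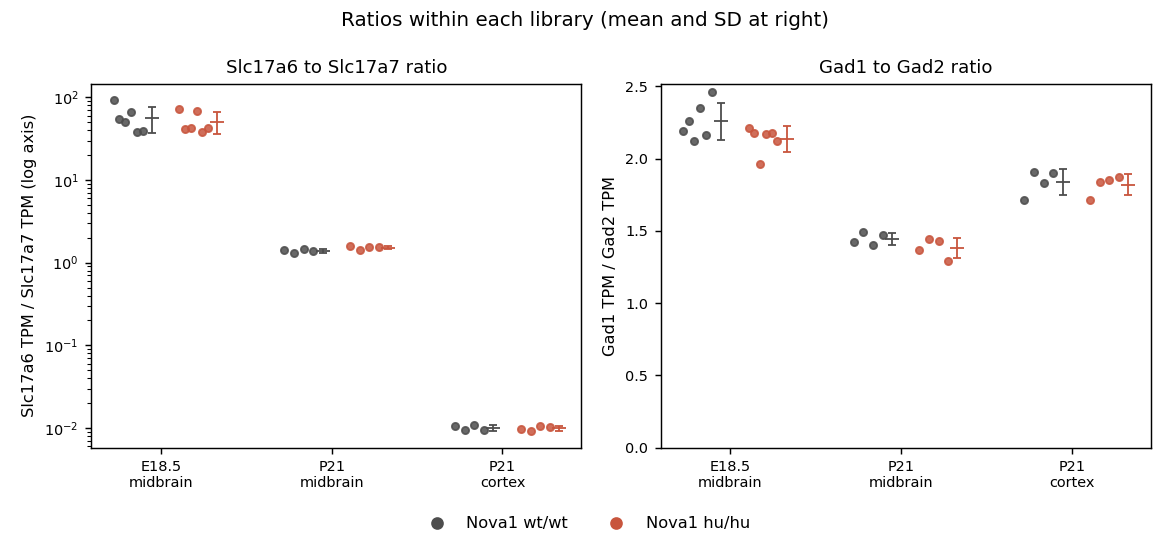
Slc17a6 to Slc17a7 TPM ratio (left, logarithmic axis) and Gad1 to Gad2 TPM ratio (right) in every library by tissue, coloured by genotype, with mean and SD at the right of each group. The transporter ratio goes from 53.8 at E18.5 over 1.46 in P21 midbrain to 0.01 in cortex (tissue means), and the Gad1 to Gad2 ratio from 2.2 over 1.41 to 1.83.

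The *Gad1* to *Gad2* ratio was 1.96 to 2.46 at E18.5, 1.29 to 1.49 in P21 midbrain and 1.71 to 1.91 in cortex, so that the 3 tissues did not overlap. Its level depends on the exon lengths and its order between tissues does not. The summed TPM of the 3 glutamate transporters over that of *Slc32a1* was 3.92 ± 0.476 (SD, n = 12) at E18.5, 3.51 ± 0.247 (n = 8) in P21 midbrain and 23.1 ± 1.27 (n = 8) in cortex.

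The genotypes were then compared within each tissue. None of the 6 genes was called in E18.5 midbrain, P21 midbrain or cortex, where edgeR called 0 of 15540, 0 of 15972 and 0 of 15767 genes (0% in each), with 201, 426 and 450 genes at an unadjusted p under 0.05. These fits, and the intervals given here, did not pair libraries between genotypes. With the replicate number as a block, 813, 735 and 897 genes were at an unadjusted p under 0.05. Of these, 0, 4 and 0 were called, none of them among the 6. DESeq2 called 0, 1 and 0 genes, none of them among the 6. *Slc17a6* differed by −0.0132 (95% interval −0.163 to 0.136), −0.0114 (−0.1 to 0.0773) and −0.0666 (−0.227 to 0.0935) on the log2 scale in these tissues. *Slc32a1* had intervals of −0.216 to 0.0552, −0.147 to 0.0654 and −0.155 to 0.0634. *Gad2* had intervals of −0.1 to 0.0949, −0.0395 to 0.129 and −0.112 to 0.11. Over these 3 genes and 3 tissues the intervals reached down to −0.227 and up to 0.136.

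**Figure D4:**
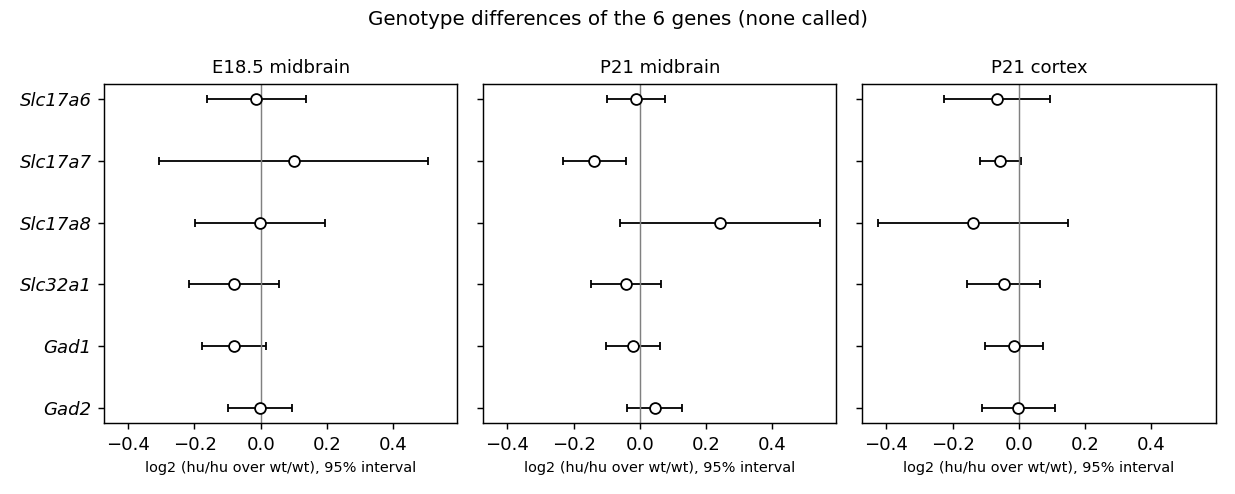
Log2 fold changes of hu/hu over wt/wt for the 6 genes (horizontal axis, points with 95% intervals) in each of the 3 tissues, from fits that did not pair libraries. No gene was called in any tissue, and in P21 midbrain the Slc17a7 interval, −0.233 to −0.0427, leaves out 0.

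*Slc17a7* in P21 midbrain was the exception in its spread. It averaged 147 ± 7.15 TPM in wt/wt and 133 ± 3.79 TPM in hu/hu mice (SD, n = 4 each), lower in hu/hu in 4 of 4 same-numbered pairs, and its groups did not overlap. Groups did not overlap for 0 of 6 genes in E18.5 midbrain, 1 of 6 in P21 midbrain and 0 of 6 in cortex, against 0.0515%, 1.92% and 2.02% of all genes tested. The log2 fold change was −0.138 (SE 0.0447), with an unadjusted p of 0.00746 and an adjusted p of 1 in edgeR, and an exact permutation test of the log2 TPM gave p = 0.0286, unadjusted among 18 such tests (6 genes in 3 tissues) and the smallest that 4 against 4 libraries allow. With the replicate number as a block the unadjusted p was 0.000696 and the gene was still not called. In cortex the difference was −0.0553 (−0.117 to 0.00638) and in E18.5 midbrain 0.0992 (−0.306 to 0.504). The genotype effect on *Slc17a7* did not pass a test of its difference between regions (−0.0787, SE 0.054, edgeR adjusted p = 1) or between ages (−0.243, SE 0.192, edgeR adjusted p = 1). With each library left out in turn these values ran from −0.108 to −0.0469 and from −0.354 to −0.141.

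Cerebellar markers also differed in P21 midbrain, with a lower sum in hu/hu in all but the third same-numbered pair. The summed TPM of *Gabra6*, *Cbln3*, *Fat2* and *Pcp2*, genes of cerebellar granule and Purkinje cells, was 11.8, 20.3, 6.15 and 24.6 in wt/wt and 6.99, 10.7, 6.48 and 9.42 in hu/hu P21 midbrain. All 4 were at an unadjusted p under 0.05 there, with a median log2 fold change of −0.968, and none was called, but with the replicate number as a block *Gabra6* and *Cbln3* were among 4 genes called in this comparison. Cerebellar granule cells are known to express *Slc17a7*. In the same order of libraries, *Slc17a7* stood at 150, 155, 143 and 139 TPM in wt/wt and at 131, 137, 134 and 129 TPM in hu/hu P21 midbrain. The markers of cortical excitatory neurons summed to 6.5 to 9.62 TPM in wt/wt and 5.75 to 8.56 TPM in hu/hu P21 midbrain. The part of either cell type in the difference was not tested.

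**Figure D5:**
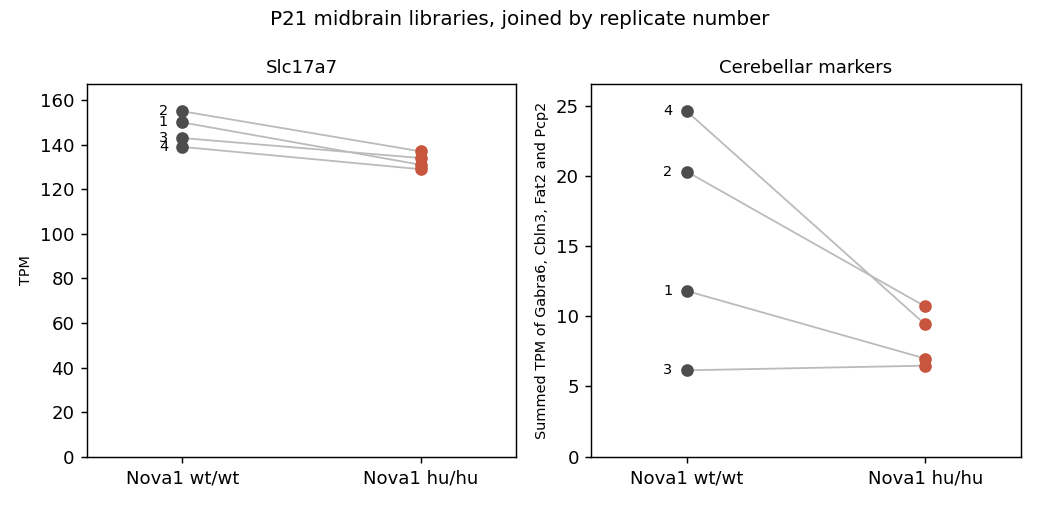
Slc17a7 TPM (left) and summed TPM of 4 cerebellar markers (right) in the 8 P21 midbrain libraries; lines join wt/wt and hu/hu libraries with the same replicate number, which is printed beside the wt/wt point. Slc17a7 is lower in hu/hu in 4 of 4 pairs, and the cerebellar sum in all but the third pair.

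The ratio of the transporters followed the same libraries. In P21 midbrain it was 1.42, 1.3, 1.47 and 1.39 in wt/wt and 1.6, 1.42, 1.54 and 1.53 in hu/hu mice, higher in hu/hu in 4 of 4 pairs, with means of 1.4 ± 0.0699 and 1.52 ± 0.0758 (SD, n = 4 each). The log2 ratio differed by 0.126 (exact permutation test, two-sided, p = 0.0571, adjusted over 3 tissues 0.171). The same test gave a difference of −0.144 in E18.5 midbrain (exact p = 0.591, adjusted 0.771) and −0.0142 in cortex (exact p = 0.771, adjusted 0.771). Over the 4 pairs of P21 midbrain a sign-flip test gave an exact p of 0.125, the smallest that 4 pairs allow.

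*Slc17a8* was also compared in P21 midbrain, and *Gad1* in E18.5 midbrain. *Slc17a8* was at 3.36, 2.82, 4.8 and 3.15 TPM in wt/wt and 3.95, 4.25, 4.38 and 4.04 TPM in hu/hu P21 midbrain, a log2 fold change of 0.243 (95% interval −0.0596 to 0.546). A single wt/wt library, the third, lay above all hu/hu libraries, and without it the fold change was 0.428, while without the second wt/wt library it was 0.153; neither was called. *Gad1* in E18.5 midbrain was at 113, 123 and 128 TPM (lowest, median and highest) in wt/wt and 114, 116 and 118 TPM in hu/hu mice. Its log2 fold change was −0.0808 (−0.178 to 0.0163, unadjusted exact permutation p = 0.0368), and the groups overlapped. With the replicate number as a block the unadjusted edgeR p was 0.0154 for this gene and 0.0399 for *Slc17a8* in P21 midbrain. Neither gene was called. No member was called for a genotype effect that differed between regions or ages, where edgeR called 0 of 16345 and 0 of 16330 genes (0% in both), with 373 and 303 at an unadjusted p under 0.05, and DESeq2 called 0 in both. With the block, 598 and 741 genes were at an unadjusted edgeR p under 0.05.

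Of 27 other genes, which load other transmitters into vesicles or make, clear or break down glutamate, GABA and glycine, none was called between genotypes in any tissue, and 0, 0 and 2 of the 26 tested had an unadjusted p under 0.05 in E18.5 midbrain, P21 midbrain and cortex. Between regions 17 were called higher in midbrain and 7 lower (median log2 fold change 0.256, against 0.000635 over all genes, of which 37.9% were called higher and 37.7% lower). Of the 8 genes of GABA and glycine clearance and breakdown, 7 were called higher in midbrain and 0 lower (median 1.1). All 4 astrocyte markers were also called higher there (median 0.654), with sums of 694 to 756 TPM in P21 midbrain and 414 to 476 TPM in cortex, and the part of astrocytes was not tested. The glycine transporter gene of glycinergic neurons, *Slc6a5*, was at 38.1 to 75.7 TPM in P21 midbrain and had 1 count in all over the 8 cortex libraries. *Slc6a9*, the glial glycine transporter, was higher in midbrain by 2.27 (SE 0.0292) and *Slc18a2*, the vesicular monoamine transporter, by 2.99 (SE 0.0561) on the log2 scale. Lower in midbrain were the vesicular nucleotide transporter *Slc17a9* (−1.36, SE 0.304), at under 2 TPM in every library, and the astrocyte glutamate transporters *Slc1a3* (−0.883, SE 0.028) and *Slc1a2* (−0.686, SE 0.0321).

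Between ages 22 of the 27 genes were called higher at P21 and 3 lower (median 0.982, against −0.0153 over all genes, of which 42.4% were called higher and 43.3% lower). Of the 14 genes of glutamate synthesis and clearance, 12 were called higher and 2 lower. *Slc1a2* rose by 3.42 (SE 0.0452), the glutaminase gene *Gls2* by 3.1 (SE 0.0995) and *Glul*, the glutamine synthetase of astrocytes, by 2.6 (SE 0.0687) on the log2 scale. The GABA transporter gene *Slc6a13* was lower at P21, at −1.66 (SE 0.0833), as were the glutamine transporter *Slc38a5* at −1.28 (SE 0.0898) and the glutamate transporter *Slc1a6* at −0.475 (SE 0.0703). Astrocyte markers summed to 283 to 410 TPM at E18.5 and 694 to 756 TPM in P21 midbrain, and the part of astrocytes in these differences was not tested.

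Factors of GABA neurons differed by region of origin. The 6 factors of forebrain GABA neurons summed to 85 to 97.6 TPM in cortex, 7.9 to 15.3 TPM in P21 midbrain and 25.9 to 46.2 TPM at E18.5. The 6 factors of midbrain GABA neurons summed to 4.76 to 5.57, 23.4 to 28.2 and 66.8 to 83.6 TPM. Both lists were thus higher at E18.5 than at P21 in midbrain, where all 6 and 4 of 5 genes tested were called lower at P21, as were 43.3% of all genes, while *Slc32a1*, *Gad1* and *Gad2* were called higher.

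Genes were also ranked by how closely they followed each of the 6, as the Pearson correlation of log2(TPM + 1) over 28 libraries among 15028 genes, a description in which libraries share tissue and depth. *Slc17a7* was followed most closely by *Ptk2b*, *Phyhip* and *Ppp1r9b* (0.998 each) and *Slc17a6* by *Tmem130* (0.995), *Slc18a2* and *Clcn5* (0.993 each). *Slc17a8* was followed by *Zscan18* and *Guf1* (0.964 each) and *Emid2* (0.96). *Slc32a1* was followed by *Scrt1* (0.985) and *Iqsec1* (0.982), *Gad2* by *Adam23* (0.991), *Cpox* and *Cds2* (0.99 each), and *Gad1* by the V-ATPase genes *Atp6ap1* (0.976) and *Atp6v1b2* (0.973) and by *Napb* (0.975). V-ATPase builds the proton gradient on which vesicular transporters run.

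Once the mean of each of the 6 groups had been subtracted, the closest genes were different. *Slc17a7* was followed by *Ppm1m* (0.928), *Rapgef3* (0.91) and *Lynx1* (0.906), *Slc17a6* by *Ttll1* (0.791) and *Necab1* (0.783), and *Slc17a8* by *Atp10d* (0.734), *Man1a* (0.725) and *Plin4* (0.723). *Slc32a1* was followed by *Fbxl19* (0.861), *Fam57b* (0.848) and *Tmem151b* (0.832), *Gad2* by *Cadm2* (0.878), *Opcml* (0.848) and *Polr3e* (0.842), and *Gad1* by *Atp6ap1* (0.661), *Pcdh11x* (0.649) and *Kcna3* (0.64). *Atp6ap1* was among the 3 closest to *Gad1* both ways. Within groups the 6 genes followed each other little, with correlations of −0.198 to 0.425, the highest between *Gad1* and *Gad2*.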

How the data were processed

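Polyadenylated RNA was sequenced as paired-end reads, aligned to mm10 with OLego and counted per gene with Quantas by the authors; the gene annotation and the use of strand are not given in the sources used here. The files the authors deposited hold an estimated count, an exon length in bases and an RPKM value for each of 23038 genes. The deposited RPKM values follow from counts, lengths and totals (largest relative difference 2.27e-13) and were not used further. Deposited counts were not whole for 751 to 2715 genes per library and were rounded for the tests. The 10 most abundant genes held 5.67% to 16.2% of a library, and no 2 libraries were identical.

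TPM values were computed from unrounded counts and exon lengths. Comparisons across all genes used edgeR 4.0.16 (R 4.3.3) with TMM factors, filterByExpr and the quasi-likelihood test, tested on simulated data. The study's methods name edgeR but not which of its tests. Genotypes were compared with only that tissue's libraries, regions and ages with both genotypes, and interactions as product terms. Genes with p under 0.05 and adjusted p under 0.1 were called. DESeq2 1.42.0 was an alternative. Ratios were tested with exact or 100000-resample two-sided permutation tests (scipy), a family of 3 by genotype and a family of 2 by region and age. Correlations used a pseudocount of 1.

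Same-numbered libraries of the 2 genotypes deviated together (E18.5 midbrain, correlations of 0.171 to 0.391 against a median of −0.0731 for other numbers; P21 midbrain, 0.201 to 0.235 against −0.0937; cortex, 0.17 to 0.246 against −0.109), so numbers were taken to pair libraries between genotypes. The members, gene lists and tests were chosen with earlier results of these data known. Named genes were the 6 members, pathway genes called between genotypes, the 3 called with the largest change each way by region and age, and the 3 genes with the highest correlation with each member, of which 2 are not reported here; genes of marker lists were named as examples after their values were seen. Of 23038 identifiers, 22959 matched the RefSeq annotation of GRCm38, which gave positions. *Drd1* was not found by symbol among the striatal markers. Alternatives were RLE factors, TPM or library totals as scale (both added after seeing the data), no filter or a minimum of 10 counts per library, DESeq2, a stricter adjusted p of 0.05, the replicate block, all 28 libraries in 1 fit, each library left out, and for ratios counts without length or 0.5 added to each count.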

Additional observations from a re-analysis of the deposited data

Results flagged for a closer look

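Over 42 sets of libraries (the 6 genes and the *Slc17a6* to *Slc17a7* ratio in 6 groups), 2 held a library far from the others of its group, judged by the gap to its nearest neighbour over the group's range; chance flags about 1 in 20 such sets. The first wt/wt library of E18.5 midbrain held *Slc17a8* at 6.06 TPM, below the other wt/wt libraries by 0.666 of the range. The third hu/hu library of E18.5 midbrain held *Gad2* at 58.6 TPM, above the other hu/hu libraries by 0.662 of the range.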

How the results depend on the processing

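No genotype comparison or interaction called any of the 6 genes under any alternative run. With the replicate block, which pairs libraries between genotypes, 4 genes were called in P21 midbrain (*Cbln3*, *Cdr1*, *Gabra6* and *Mybpc3*), and 1 with DESeq2 (*Gkn3*), all named after their values were seen and none among the 6. The block changed no call of the 6 genes between genotypes. Between regions same-numbered libraries deviated in opposite directions (correlations of −0.201 to −0.102, against medians of 0.0838 and 0.109 for other numbers), and between ages at −0.145 to 0.147, so the numbers were not taken to pair libraries there. In those comparisons the block brought *Gad1* past the threshold, so that 5 genes were called between regions, and kept all 6 between ages. Leaving out each library gave 4 to 5 genes called between regions. With TPM or library totals as scale, both added after seeing the data, 5 genes were called between ages, all but *Slc17a6*.

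Estimates near 0 that had not passed the test changed sign as follows. TPM totals gave *Slc17a8* 0.00107 and *Gad2* 0.0027 between genotypes at E18.5, *Slc17a8* 0.0423 and *Gad1* 0.0207 between regions, and *Slc17a6* −0.00678 for the interaction with age. Library totals gave *Slc17a6* 0.00901, *Slc17a8* 0.0197 and *Gad2* 0.0205 at E18.5, *Slc32a1* −0.01 for the interaction with region, and *Slc17a6* −0.0439 and *Slc32a1* −0.00539 for that with age. Without a filter *Slc17a8* was at 0.000119 at E18.5. The cause was not tested.

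Leaving out each library moved the log2 transporter ratio between genotypes from −0.256 to 0.00934 at E18.5, the highest without wt/wt library 1, and from −0.0505 to 0.0242 in cortex; in P21 midbrain it stayed positive, at 0.0943 to 0.16. Genotype estimates at E18.5 ran from −0.0423 to 0.0401 for *Slc17a6*, −0.00724 to 0.212 for *Slc17a7*, −0.0684 to 0.0254 for *Slc17a8* and −0.016 to 0.0202 for *Gad2*. In P21 midbrain they ran from −0.0414 to 0.00553 for *Slc17a6* and −0.0435 to 0.00506 for *Gad1*, and in cortex from −0.0421 to 0.0192 for *Gad1* and −0.036 to 0.035 for *Gad2*. *Slc17a8* between regions ran from −0.0983 to 0.0431. Interactions ran from −0.0399 to 0.0506 (*Slc32a1*) and −0.0368 to 0.0272 (*Gad1*) with region, and from −0.0474 to 0.0331 (*Slc17a6*) and −0.00151 to 0.0859 (*Slc32a1*) with age. *Slc17a7* in P21 midbrain ran from −0.167 to −0.105, and *Slc17a8* there from 0.153 to 0.428. For the 6 genes in all 7 fits, 339 values under other settings kept their direction and their side of the threshold, 12 changed sign, 1 gained and 2 lost a call. With a library left out 543 kept both, 53 changed sign and 4 gained a call. Of 108 group means recomputed on another scale or length, 31 moved by less than 1 SD. Some of these were RPKM scaled by TMM factors, a different unit from TPM. For example, *Slc17a6* in wt/wt E18.5 midbrain was at 58.8 on that scale and 201 in TPM. The count therefore does not show how steady the levels were. At E18.5 *Slc17a7* rested on 45 to 179 counts per library.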
